A study of Mus musculus with 32 samples.

Results

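The genes described here are 10 genes of myeloid cells: the lysosomal genes Lyz2 and Ctss, the genes Lgals3, Trem2 and Gpnmb of lipid-laden macrophages, the inflammatory genes Cd14, Il1b and Ccl6, and the neutrophil genes S100a9 and Ngp. They were chosen by gene name with earlier results of these data known. That 10 of 10 were among the 242 genes that the authors listed for experiment P is therefore no result. Among the 306 genes listed for experiment T were 0 of 10, which after such a choice is not evidence of a difference between the experiments. Experiment P, whose titles call it experiment 2, compared livers of C57BL/6J mice given vehicle (labelled P_Vehicle, 8 libraries) with livers of mice given SXB (labelled P_SXB, 8 libraries), and it makes up 16 of the 32 libraries of the series. SXB is sodium oxybate, a salt of gamma-hydroxybutyrate prescribed in narcolepsy, and the study asked how it acts on weight in obese mice. The labels give no diet, dose, duration, age or sex, and they do not tie libraries to animals, so p-values measure the spread between these libraries, which may be technical.

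Macrophages and neutrophils take up microbes, dead cells and lipid and break them down in lysosomes or with granule proteins. In the healthy liver most macrophages are resident Kupffer cells. Monocytes and neutrophils enter from the blood in inflammation, and macrophages that take up much lipid in fatty liver are known to express Trem2, Gpnmb and Lgals3. Because whole liver was sequenced, fewer cells of a type and less RNA per cell cannot be told apart.

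The values are the authors' normalised expression values, whose kind (TPM or FPKM) is not stated, so levels are compared between libraries and not between genes. The authors' list holds genes with a log2 fold change beyond 1 and an unadjusted p below 0.05 in these same libraries, so a change with SXB is built into it, and the tests below are not independent evidence of one. S100a9 lay just inside that limit, with an unadjusted p of 0.0494 in the authors' deposited table. Vehicle libraries 33, 34 and 35 stand apart: their summed listed values were 708 to 1626, against 260 to 313 in the other 5 vehicle libraries and 144 to 372 with SXB. They were picked for these sums, and the results are also given without them. Hepatocyte markers are not among the listed genes, so the liver label was not checked against them.

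The start regions of 5 members are shown because they carry the short sequences searched for and because these genes differ in how they behaved: Lyz2 and Ctss fell with SXB, while Ccl6, S100a9 and Ngp did not pass the test. Each runs 5′ to 3′ from 250 bases before the gene's start in RefSeq (GRCm38.p6) through the first 20 transcribed bases, and capitals mark the matches on either strand. The regions are chr10:117282253-117282522 (minus strand) for Lyz2, chr3:95526536-95526805 (plus strand) for Ctss, chr11:83593068-83593337 (minus strand) for Ccl6, chr3:90695702-90695971 (minus strand) for S100a9 and chr9:110419558-110419827 (plus strand) for Ngp.
Lyz2: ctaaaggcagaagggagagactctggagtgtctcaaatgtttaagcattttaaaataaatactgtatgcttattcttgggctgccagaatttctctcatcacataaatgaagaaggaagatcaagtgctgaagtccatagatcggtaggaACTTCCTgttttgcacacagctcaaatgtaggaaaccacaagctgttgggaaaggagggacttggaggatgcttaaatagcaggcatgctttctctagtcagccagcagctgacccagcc
Ctss: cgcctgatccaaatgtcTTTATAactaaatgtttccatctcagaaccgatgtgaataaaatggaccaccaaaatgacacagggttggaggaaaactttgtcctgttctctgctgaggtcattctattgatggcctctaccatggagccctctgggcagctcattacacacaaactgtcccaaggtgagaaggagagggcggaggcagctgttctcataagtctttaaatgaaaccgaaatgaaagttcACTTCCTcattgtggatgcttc
Ccl6: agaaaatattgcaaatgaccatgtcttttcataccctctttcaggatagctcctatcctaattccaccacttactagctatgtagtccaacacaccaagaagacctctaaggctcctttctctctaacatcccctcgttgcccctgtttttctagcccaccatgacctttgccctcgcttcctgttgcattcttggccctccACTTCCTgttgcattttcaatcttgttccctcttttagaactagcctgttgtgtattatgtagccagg
S100a9: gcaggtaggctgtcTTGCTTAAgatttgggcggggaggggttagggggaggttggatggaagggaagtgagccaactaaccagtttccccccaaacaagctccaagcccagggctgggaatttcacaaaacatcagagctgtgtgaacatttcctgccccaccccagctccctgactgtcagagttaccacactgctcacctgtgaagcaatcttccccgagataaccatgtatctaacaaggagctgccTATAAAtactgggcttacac
Ngp: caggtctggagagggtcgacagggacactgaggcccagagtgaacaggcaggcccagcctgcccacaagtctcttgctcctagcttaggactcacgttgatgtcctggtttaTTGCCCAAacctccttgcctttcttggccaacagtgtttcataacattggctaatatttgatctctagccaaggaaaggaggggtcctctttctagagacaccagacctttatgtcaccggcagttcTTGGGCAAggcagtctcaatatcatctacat

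Of the 9 members searched, Lyz2, Ctss and Ccl6 held AGGAAGT, a core sequence of the myeloid factor PU.1, which 8.43% of all 32851 start regions of this length hold. The S100a9 and Ngp regions held TTGCNNAA, a form of the C/EBP sequence (10.1% of all regions), beginning 236 bases before the start in S100a9 and 138 and 11 bases before it in Ngp. TATAAA, the sequence of the TATA box, was found in Il1b, Ctss and S100a9 (12.9% of all regions). It began 31 bases before the start in Il1b, lay on the other strand and 233 bases before the start in Ctss, and began at the first transcribed base in S100a9, so the Il1b match alone stood where a TATA box usually lies. Gpnmb and Trem2 held the AP-1 sequence TGANTCA (7.23%). CACGTGA, a form of the E-box bound by the lysosomal regulators TFEB and TFE3, was found in 0 of 9 (3.51% of all regions). No match overlapped another. AGGAAGT thus stood in 2 genes that fell and in Ccl6, which did not pass. A match is a description, not a binding site.

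Both lysosomal genes fell with SXB. Lyz2, the lysozyme of macrophages and neutrophils, ranged from 10.74 to 33.3 with a median of 19.7 in the vehicle libraries, and from 7.18 to 12.04 with a median of 9.43 in the SXB libraries. The groups overlapped at their edges, with 6 of 8 SXB libraries below the lowest vehicle library. Its mean went from 19.8 ± 7.31 in the vehicle group to 9.47 ± 1.81 in the SXB group (SD, n = 8 each), 2.09-fold lower. Ctss encodes cathepsin S, a protease that trims the invariant chain so that class II molecules can load antigen. It ranged from 5.05 to 13.3 (median 7.715) with vehicle and from 3.3 to 5.23 (median 4.02) with SXB, and 7 of 8 SXB libraries lay below the lowest vehicle library. The Ctss mean went from 8.12 ± 2.75 to 4.12 ± 0.722, 1.97-fold lower. In GENCODE M21 (GRCm38), Lyz2 lies on chromosome 10 from 117277331 to 117282321 and Ctss on chromosome 3 from 95526786 to 95556403. The Lyz2 transcript matched that of its neighbour Lyz1 at 95.8% of 1264 aligned positions, and the sources used here do not say how shared reads were divided.

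Tests were run on log2(value + 1), a scale that shrinks the changes of genes with low values. SXB minus vehicle was -0.93 (SE 0.20) for Lyz2 and -0.79 (SE 0.16) for Ctss, with limma adjusted p-values of 0.003055 and 0.00268 over all 242 genes. Without vehicle libraries 33, 34 and 35 both calls held, at -0.74 (SE 0.20, limma adjusted p = 0.0291) and -0.56 (SE 0.13, limma adjusted p = 0.0156). The high vehicle values of Lyz2 were not those of these libraries alone: after library 35 at 33.3 came library 36 at 24.6 and library 21 at 22.3, ahead of library 33 at 20.6 and library 34 at 18.8. For Ctss the order was library 35 at 13.3, library 33 at 9.85 and library 21 at 9.32.

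**Figure D1:**
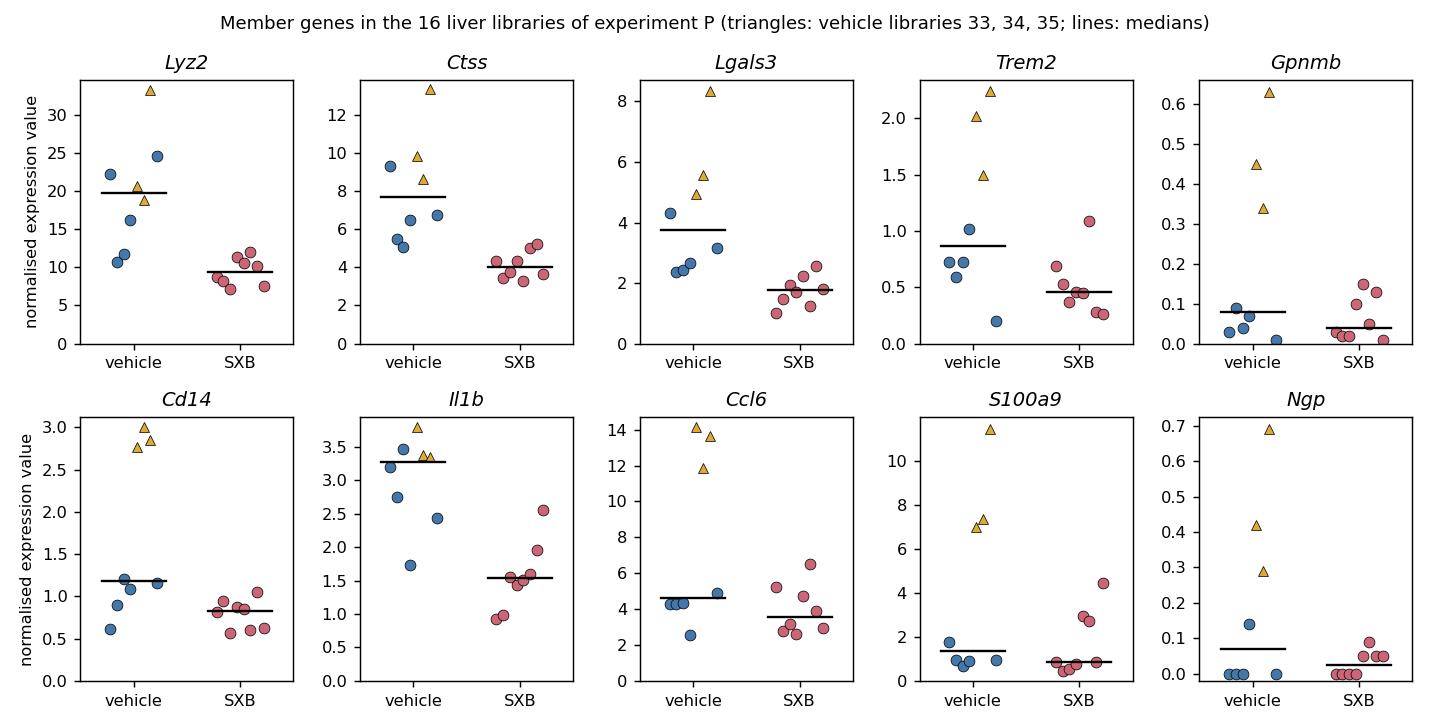
Normalised expression value (linear axis, one scale per gene) of the 10 genes in the 8 vehicle and 8 SXB libraries of experiment P. Points are libraries, triangles are vehicle libraries 33, 34 and 35, and horizontal lines are medians; for Lyz2, Ctss, Lgals3 and Il1b most vehicle circles also lie above the SXB circles, while for Ccl6, S100a9, Gpnmb and Ngp the triangles alone stand high.

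Of the 3 genes of lipid-laden macrophages, Lgals3 fell and Trem2 and Gpnmb did not pass. Lgals3, which encodes galectin-3, a sugar-binding protein abundant in activated macrophages, ranged from 2.36 to 8.35 (median 3.74) with vehicle and from 1.0 to 2.55 (median 1.76) with SXB. Of the SXB libraries 7 of 8 lay below the lowest vehicle library. The Lgals3 mean went from 4.22 ± 2.06 to 1.74 ± 0.508 (SD, n = 8 each), 2.43-fold lower, with a log2 difference of -0.87 (SE 0.20, limma adjusted p = 0.00579). Without vehicle libraries 33, 34 and 35 the fold was 1.72 and the log2 difference -0.54 (SE 0.15, limma adjusted p = 0.0307). Lgals3 lies on chromosome 14 from 47367751 to 47386160.

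Trem2, a lipid-sensing receptor of macrophages on chromosome 17 from 48346401 to 48354147, ranged from 0.2 to 2.24 (median 0.87) with vehicle and from 0.26 to 1.09 (median 0.455) with SXB. The vehicle group held both the lowest value of all 16 libraries, in library 36, and the 3 highest, in libraries 33, 34 and 35 at 2.02, 1.5 and 2.24. Its means were 1.13 ± 0.724 for vehicle and 0.516 ± 0.270 for SXB (log2 difference -0.43, SE 0.19, limma adjusted p = 0.0740). Leaving out vehicle library 36 alone brought it to -0.54 (limma adjusted p = 0.0243), and leaving out libraries 33, 34 and 35 to -0.12 (limma adjusted p = 0.475). Gpnmb, a lysosome-associated glycoprotein on chromosome 6 from 49036546 to 49070929, was low. Its values were 0.45, 0.34 and 0.63 in vehicle libraries 33, 34 and 35, from 0.01 to 0.09 in the other 5 vehicle libraries and from 0.01 to 0.15 with SXB. Its log2 difference was -0.16 (SE 0.09, limma adjusted p = 0.134), and 0.02 (SE 0.04) without these 3 libraries. Lyz2 and Trem2 parted in vehicle library 36, which held the second highest Lyz2 value and the lowest Trem2 and Gpnmb values of its group. In library 35 they did not part: Lyz2, Trem2 and Gpnmb all had their highest value there.

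Among the inflammatory genes, Il1b fell with and without libraries 33, 34 and 35, Cd14 fell with all libraries only, and Ccl6 did not pass. Il1b encodes interleukin-1β, a cytokine that the inflammasome activates. Its value ranged from 1.73 to 3.8 (median 3.27) with vehicle and from 0.93 to 2.56 (median 1.535) with SXB, and 6 of 8 SXB libraries lay below the lowest vehicle library, number 31. The mean went from 3.01 ± 0.670 to 1.565 ± 0.522 (SD, n = 8 each), 1.92-fold lower. Vehicle libraries 33, 34 and 35, at 3.8, 3.37 and 3.34, were close to vehicle libraries 26 at 3.47 and 21 at 3.2. The coefficient of variation of Il1b in the vehicle libraries was 22.2%, the lowest of the 10 genes in that group, and it was the one member of 10 that varied more with SXB (33.3%). The log2 difference was -0.65 (SE 0.13, limma adjusted p = 0.00284), and -0.54 (SE 0.15, limma adjusted p = 0.0328) without libraries 33, 34 and 35. Leaving out SXB library 25 as well, whose Orm2 value was high too, gave -0.54 (SE 0.17, limma adjusted p = 0.0508), which narrowly missed the threshold. Il1b lies on chromosome 2 from 129364570 to 129371139, where the antisense gene Il1bos overlaps it; the sources used here do not say whether reads were assigned by strand.

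Cd14, a coreceptor for bacterial lipopolysaccharide on chromosome 18 from 36725067 to 36726798, had values of 2.77, 3.0 and 2.85 in vehicle libraries 33, 34 and 35. The other 5 vehicle libraries held 0.61 to 1.21 and the SXB libraries 0.57 to 1.05. These 5 therefore overlapped the SXB libraries while the 3 others lay above all 13. With all libraries the mean went from 1.70 ± 0.992 to 0.791 ± 0.175 (SD, n = 8 each), 2.15-fold lower, and the log2 difference was -0.51 (SE 0.18, limma adjusted p = 0.0412). Without libraries 33, 34 and 35 the fold was 1.26 and the difference -0.15 (SE 0.09, limma adjusted p = 0.192). Cd14 also missed the threshold when vehicle library 33, 34 or 35 or SXB library 19, 23, 24, 25, 28 or 30 was left out alone, with differences of -0.52 to -0.42.

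Ccl6, a chemokine of the CC family known from mouse macrophages and neutrophils, showed the same 3 libraries high, at 14.1, 11.85 and 13.6. The other 5 vehicle libraries ranged from 2.57 to 4.9 and the SXB libraries from 2.64 to 6.54, so these overlapped fully. Its means were 7.499 ± 4.81 for vehicle and 3.99 ± 1.40 for SXB (log2 difference -0.62, SE 0.31, limma adjusted p = 0.0923), or -0.05 (SE 0.19) without the 3. Leaving out vehicle library 31, the lowest of its group, gave -0.77 (limma adjusted p = 0.0480). Ccl6 lies on chromosome 11 from 83587882 to 83593087 and is overlapped on the other strand by E230016K23Rik.

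**Figure D2:**
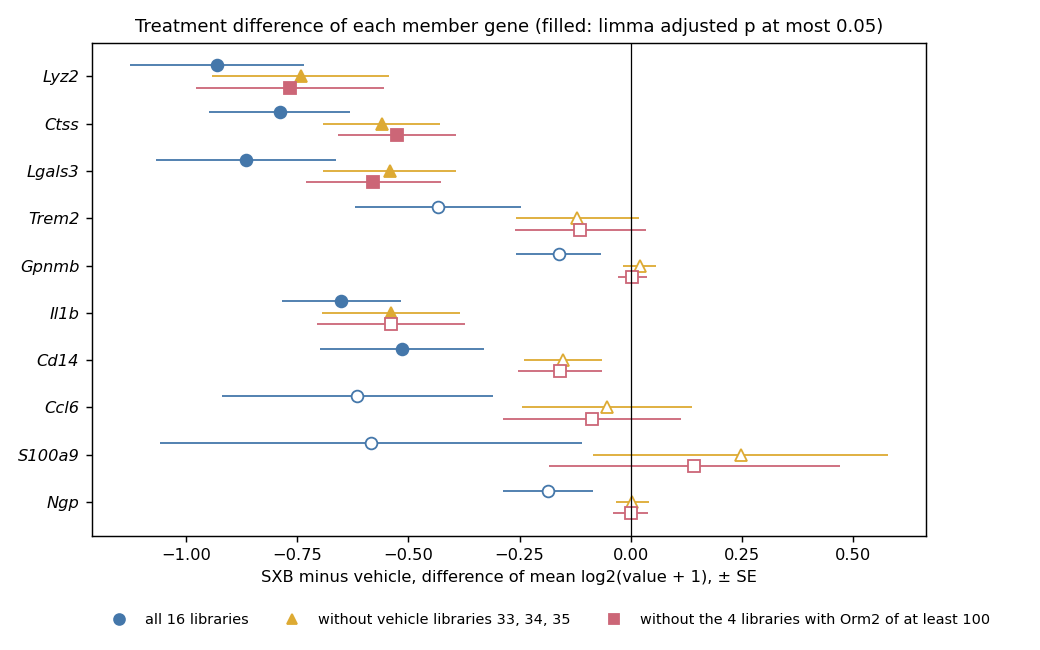
Difference of mean log2(value + 1), SXB minus vehicle, with its standard error for each gene, with all 16 libraries, without vehicle libraries 33, 34 and 35, and without the 4 libraries with Orm2 of at least 100. Filled symbols passed limma at an adjusted p of 0.05; Lyz2, Ctss and Lgals3 are filled in all 3 fits, Il1b in 2 and Cd14 in 1.

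Neither neutrophil gene passed. S100a9 encodes a subunit of calprotectin, the calcium-binding protein that fills the neutrophil cytosol, and lies on chromosome 3 from 90692632 to 90695721. Its values were 7.01, 7.35 and 11.45 in vehicle libraries 33, 34 and 35, from 0.66 to 1.79 in the other 5 vehicle libraries and from 0.46 to 4.47 (median 0.86) with SXB. SXB libraries 30, 25 and 28, at 4.47, 2.97 and 2.72, lay above these 5 vehicle libraries. The means were 3.88 ± 4.14 for vehicle and 1.70 ± 1.49 for SXB (SD, n = 8 each), a spread larger than the mean in the vehicle group. The log2 difference was -0.58 (SE 0.47, limma adjusted p = 0.251), and 0.25 (SE 0.33, limma adjusted p = 0.538) without the 3 libraries.

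Ngp, a granule protein of maturing neutrophils on chromosome 9 from 110419747 to 110423012, was near the rounding step of 0.01. It was listed at 0 in vehicle libraries 21, 22, 26 and 36 and in SXB libraries 19, 20, 23 and 24. The other vehicle values were 0.14, 0.42, 0.29 and 0.69 in libraries 31, 33, 34 and 35, and the other SXB values were 0.05 in libraries 25, 29 and 30 and 0.09 in library 28. Whether a listed 0 is a failed estimate was not tested. The mitochondrial gene mt-Co3 was also listed at 0 in SXB library 23. It was 8.73 in vehicle library 34, 44.3, 4.88 and 43.0 in SXB libraries 24, 28 and 29, and 0.02 to 0.15 in the other libraries. The log2 difference of Ngp was -0.19 (SE 0.10, limma adjusted p = 0.113), and below 0.01 in size without libraries 33, 34 and 35.

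In all, 5 of 10 members fell by limma and 0 rose; among all listed genes 34.7% fell by the same test. Without libraries 33, 34 and 35 it was 4 of 10, against 20.7% of all listed genes, and these 4 (Lyz2, Ctss, Lgals3 and Il1b) were among the 5. Without the 4 libraries with Orm2 of at least 100 it was 3 of 10, against 12% of all listed genes. The median log2 difference was -0.60 over the members and -0.17 over all listed genes, and -0.14 and -0.07 without the 3 libraries. These medians are not on an equal footing: 195 of the 242 listed genes but 3 of the 10 members have a mean below 1, where log2(value + 1) shrinks a difference, and 41 of the listed genes are listed as higher with SXB. With a pseudocount of 0.01 in place of 1 the difference was -0.90 for Cd14, -0.93 for Trem2, -1.03 for Gpnmb and -1.16 for Ngp, and of these Cd14 alone passed, as before (limma adjusted p = 0.0404). For 5 of 10 members each SXB library was below the median of the vehicle libraries, against 43.4% of all listed genes. The groups did not overlap at all for 0 of 10 members and for 2.89% of listed genes. Of the 10 members, 5 passed at an adjusted p of 0.05 by the test in the authors' deposited table (20.2% of listed genes passed as lower), and these 5 passed limma as well. Those values were 7.01e-05 for Il1b, 0.000132 for Lyz2, 0.000146 for Ctss, 0.000907 for Lgals3 and 0.0286 for Cd14 in the authors' deposited table.

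The members divided by their behaviour within the vehicle group. For 7 of 10, namely Lgals3, Trem2, Gpnmb, Cd14, Ccl6, S100a9 and Ngp, libraries 33, 34 and 35 each lay above all other 13 libraries of experiment P, which held for 14.9% of all listed genes. Lyz2, Ctss and Il1b were the other 3. The acute phase genes Orm2 and Saa3, which hepatocytes or other liver cells make in inflammation, were high in the same libraries: Orm2 was 539.6, 896.8 and 140.1 in libraries 33, 34 and 35 and 8.03 to 10.4 in the other 5 vehicle libraries. These 3 libraries were picked for summed values that include Orm2 and Saa3, so high values there are partly built in. Orm2 made up much of the sum in library 33 (1095) and library 34 (1626). With SXB, Orm2 was 4.78 to 163.4 and Saa3 was 1.82 to 20.7, against 82.3, 265.1 and 23.97 for Saa3 in libraries 33, 34 and 35. The order within these 3 libraries differed: Orm2 and Saa3 were lowest of the 3 in library 35, where 7 of 10 members had their highest value. SXB library 30 held the highest S100a9 value of its group beside an Orm2 value of 5.14. The part of the acute phase state in the treatment differences was not tested.

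**Figure D3:**
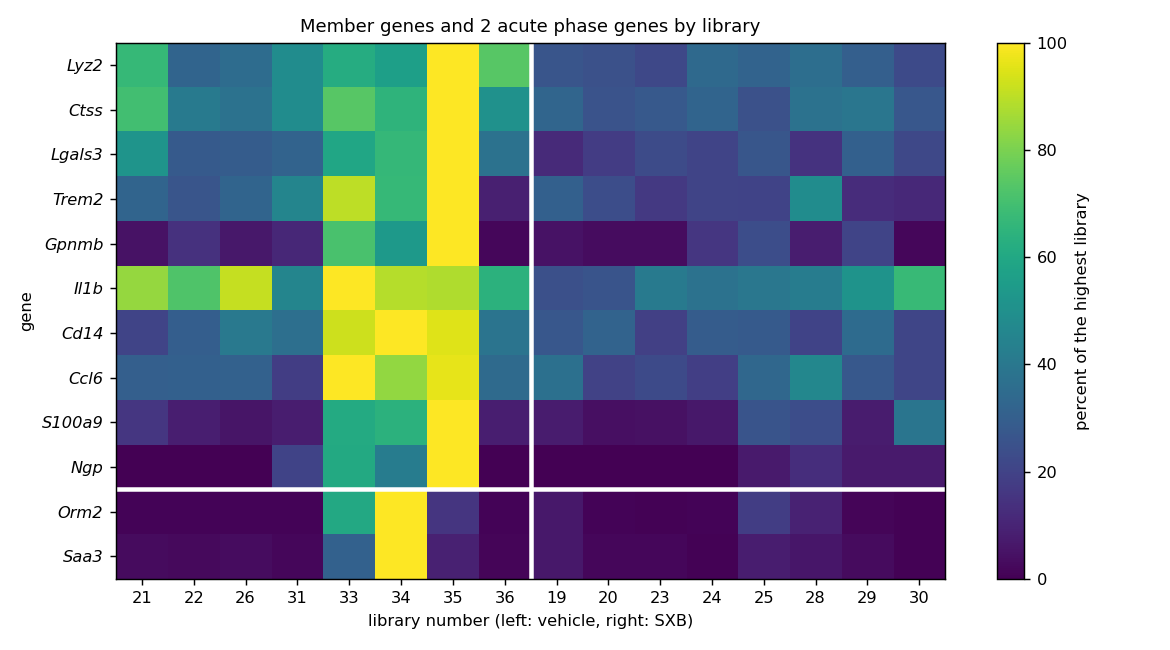
Value of each member and of the acute phase genes Orm2 and Saa3 in each library of experiment P, as percent of that gene's highest library (colour scale from 0 to 100), with vehicle libraries left of the white line and SXB libraries right of it. Columns 33, 34 and 35 are bright for most genes; Il1b is also bright in vehicle libraries 21, 22 and 26, and Lyz2 in libraries 21 and 36.

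**Figure D4:**
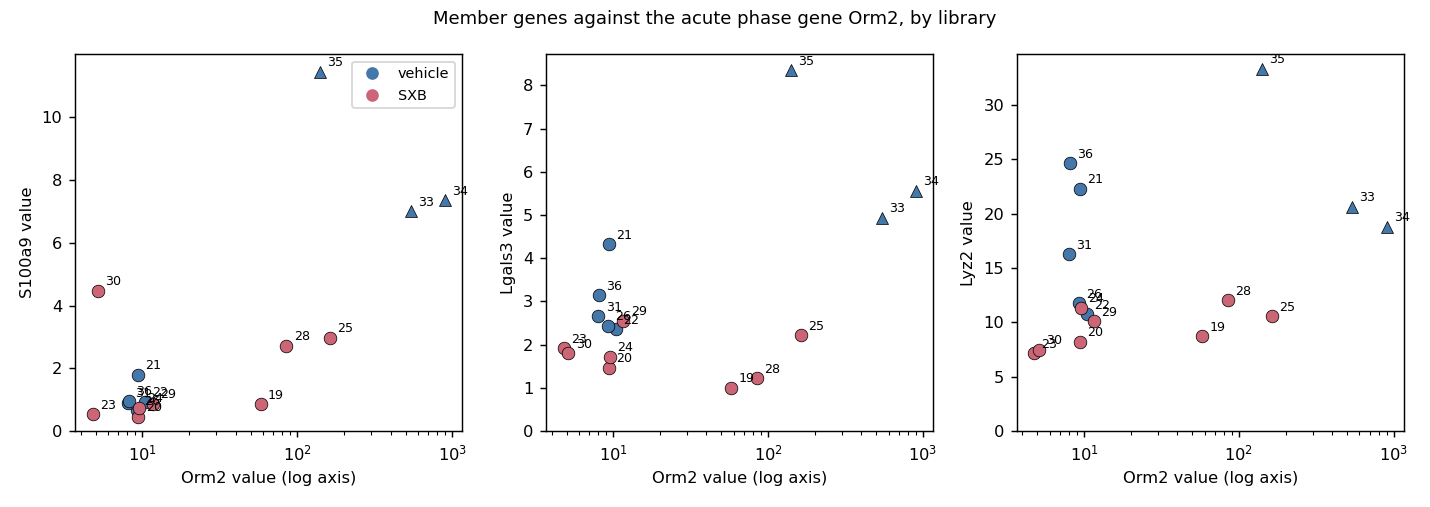
Values of S100a9, Lgals3 and Lyz2 (linear axes) against Orm2 (log axis) in the 16 libraries, labelled by library number, with vehicle in blue and SXB in red and triangles for vehicle libraries 33, 34 and 35. At Orm2 values near 10 the vehicle libraries range from 10.74 to 24.6 for Lyz2 and from 2.36 to 4.33 for Lgals3. Their lowest values lie below SXB library 24 for Lyz2 (11.36) and SXB library 29 for Lgals3 (2.55). For S100a9 these vehicle libraries reach 1.79, and SXB library 30, with an Orm2 value of 5.14, holds 4.47.

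Within a group no pair of members was found to vary together after adjustment. The vehicle libraries fall into separate clusters, so r was computed over the 8 SXB libraries and over the 13 libraries without 33, 34 and 35 with group means removed, for 45 pairs of members each. The 13 libraries include the 8 SXB libraries, so the sets are not independent of each other. In either set 0 of 45 pairs passed after adjustment by r or by rho, and 3 and 1 had an unadjusted p of at most 0.05 by r. By rho, Lyz2 and Gpnmb were at that level over the SXB libraries (rho = 0.74, exact permutation p = 0.0422, adjusted p = 0.632). Over the 13 libraries Lgals3 and Trem2 were at that level by rho (permutation p = 0.0370, adjusted p = 0.930). S100a9 and Ngp had r = 0.76 (exact permutation p = 0.0393) and rho = 0.81 (exact permutation p = 0.0286) over the SXB libraries, with adjusted p-values of 0.589 and 0.632. Without the 2 libraries farthest from the S100a9 median r was 0.89, and over the 13 libraries it was 0.40. Ngp was only 0, 0.05 or 0.09 in the SXB libraries, so its correlations there rest on few distinct values near the rounding step. Lgals3 and Trem2, both genes of lipid-laden macrophages, went opposite ways over the SXB libraries, with r = -0.76 (exact permutation p = 0.0279, adjusted p = 0.589) and rho = -0.81 (exact permutation p = 0.0218, adjusted p = 0.632), r = -0.76 without the 2 libraries farthest from the Lgals3 median, and r = -0.50 and rho = -0.65 over the 13 libraries. The third pair, Trem2 and Ccl6, had r = 0.72 (exact permutation p = 0.0355, adjusted p = 0.589) and rho = 0.40 (exact permutation p = 0.327, adjusted p = 0.880), and rested on the 2 libraries farthest from the Trem2 median, since r was -0.16 without them. Lyz2 and Ctss had r = 0.69 (permutation p = 0.0196, adjusted p = 0.881) and rho = 0.44 (permutation p = 0.190, adjusted p = 0.930) over the 13 libraries, and r = 0.75 without the 2 libraries farthest from the Lyz2 median; over the SXB libraries r was 0.53.

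The listed genes whose deviations from the group means were most like those of the members were partly the same for the 4 roles. Likeness was the mean Pearson r with the members of a role over 16 libraries, among 40 other genes with a mean of at least 1, and it is a description that libraries 33, 34 and 35 weigh on. For the lysosomal genes these were C1qb, a chain of complement C1q (0.86), Wfdc17, a small secreted macrophage protein (0.83), and Cd5l, a protein secreted by resident macrophages (0.82). The immunoglobulin heavy chain genes Ighg1 (0.85) and Ighg2b (0.81) and then C1qb (0.73) came closest to the neutrophil genes, and the same 3 genes to the genes of lipid-laden macrophages (0.81, 0.76 and 0.69). Ighg2b (0.65), Orm2 (0.62) and the cell cycle inhibitor gene Cdkn1a (0.62) came closest to the inflammatory genes. C1qb itself fell by 0.90 on the log2 scale (limma adjusted p = 0.00138), with means of 49.3 ± 14.5 and 25.4 ± 4.47.

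Further genes of these pathways were counted from lists, against a background of 34.7% of all listed genes that fell, or 20.7% without libraries 33, 34 and 35; counts near these shares say nothing particular of a list. Of 33 lysosomal genes 2 were listed, the members Lyz2 and Ctss, which fell as given above, so this list added no further gene. Of 21 genes of lipid-laden macrophages 4 were listed and 2 fell, the second being Clec7a, the beta-glucan receptor dectin-1 (log2 difference -0.43, SE 0.12, limma adjusted p = 0.0149; means 1.01 ± 0.447 and 0.464 ± 0.131), though not without libraries 33, 34 and 35 (-0.27, limma adjusted p = 0.0895). Of 25 cytokine and chemokine genes 5 were listed and 2 fell, Il1b and Ccl3, a chemokine for monocytes (0.411 ± 0.148 with vehicle against 0.134 ± 0.147, listed at 0 in some libraries; log2 difference -0.32, SE 0.08, limma adjusted p = 0.00958). Without the 3 libraries 4 of these 5 fell, with Ccl7 (-0.14) and the B cell attractant Cxcl13 (-0.33) besides. Ccl7 was near the rounding step and also listed at 0 in some libraries. Its means over all libraries were 0.176 ± 0.216 with vehicle and 0.01 ± 0.028 with SXB. Of 24 pattern recognition genes 6 were listed and 5 fell, namely Cd14, Clec7a, Clec4n, Tlr1 and Tlr13, of which Clec4n, the receptor dectin-2, was the 1 that fell without libraries 33, 34 and 35 (-0.27, limma adjusted p = 0.0134). Of 21 genes of neutrophil granules and cytosol 3 were listed and 0 fell, the third being Chil1 (-0.41, SE 0.25, limma adjusted p = 0.146).

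The listed markers of resident Kupffer cells fell, while 5 of the 10 members did. Both sets were listed for a change in these same libraries. Markers that were not listed have no values here, so Kupffer cell genes as a whole were not tested. Of 16 on the list 6 were listed (Marco, Cd5l, C1qb, Adgre1, Timd4 and Spic) and 6 fell, 5 without libraries 33, 34 and 35, and 0 of the 6 was listed at 0 in any library. Their summed value was 46.2 to 101.0 (median 68.35) with vehicle and 29.3 to 44.75 (median 31.5) with SXB. C1qb makes up most of that sum; its own values overlapped at the edge, with a lowest vehicle value of 32.77 and a highest SXB value of 32.87. The other 5 summed to 13.15 to 24.7 with vehicle and 7.27 to 12.72 with SXB, and these groups did not overlap. Nor did the sums of the list of lipid-laden macrophages (3.69 to 12.79 against 2.11 to 3.66), but that separation rested on Lgals3. Without Lgals3 its sums overlapped, at 0.81 to 4.44 with vehicle and 0.7 to 1.75 with SXB. The sums of the pattern recognition list did not overlap (2.22 to 5.71 against 1.33 to 2.2). Without Cd14, its gene of highest mean, they did not overlap either (1.25 to 2.86 against 0.62 to 1.23). Of all listed genes taken singly, 2.89% were lower with SXB without overlap. The summed genes were listed for a change in these same libraries, so a separation is partly built in. The 4 listed of 40 monocyte and phagocyte genes (Wfdc17, Ncf1, Fcgr4 and Cd300lf) fell, 2 of them without the 3 libraries, and summed to 22.6 to 58.0 with vehicle and 13.4 to 25.8 with SXB, mostly through Wfdc17. Of 17 B and plasma cell genes 6 were listed and 3 fell, with sums of 17.4 to 128.1 and 6.73 to 21.8. The neutrophil list summed to 0.66 to 13.2 with vehicle, 0.66 to 1.88 without libraries 33, 34 and 35, and 0.46 to 4.61 with SXB. The mesothelial list went the other way: of 8 genes 5 were listed, 0 fell and 2 rose, Upk3b (0.041 ± 0.036 with vehicle against 0.136 ± 0.082, limma adjusted p = 0.0297) and Gpm6a (0.049 ± 0.026 against 0.106 ± 0.052, limma adjusted p = 0.0471), all at low values, with sums of 0.07 to 0.49 and 0.29 to 0.89; 0 of the 5 passed without libraries 33, 34 and 35. Members of the T and NK cell, dendritic, endothelial, stellate, hepatocyte and blood cell lists were not among the listed genes. The part of these cell types in the differences of the 10 genes was not tested.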

How the data were processed

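Total liver RNA was isolated with TRIzol and sequenced as paired reads on an Illumina HiSeq, per the labels' protocols. Tools named in the submitters' processing notes are DESeq2, RSEM, StringTie, HISAT2 and fastp, with the build GRCm38; roles and versions are not stated there. Each library column holds a signal, the normalised expression value as deposited, rounded to 0.01. The header does not line up with the comparison columns; read from the values, the deposited columns are a linear ratio, its log2, the p-value before adjustment and that after it. Only genes past the authors' selection are listed, so depth per library is unknown and no counting interval is given.

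Treatment was tested two-sided on log2(value + 1) with limma (version 3.58.1, R 4.3.3) over all 242 listed genes of experiment P, 8 against 8 libraries, with Benjamini-Hochberg adjustment and a threshold of 0.05. Means, folds and SDs are of the deposited values. Exact permutation tests used 12870 assignments of the labels, correlations within the SXB libraries 40320 orders, and correlations over 13 libraries 100000 resamples within groups. The tests were checked on simulated data. The members, the 16 gene lists and the omission of vehicle libraries 33, 34 and 35 were chosen with earlier results of these data known. Named genes are the 10 members, 3 others per role group by likeness among genes with a mean of at least 1, Orm2, Saa3 and the listed genes of the myeloid lists; mt-Co3 was added after its values were seen. Gene positions are from GENCODE M21 and start regions from RefSeq, found for 9 of the 10 members and printed for 5. No library was a duplicate: Spearman's rho between libraries was 0.52 to 0.87. Alternatives were pseudocounts of 0.1 and 0.01, a filter on the mean (at least 1), a robust limma fit with trend, exact rank-sum and permutation tests, a threshold of 0.01, and libraries left out. Leaving out every library with Orm2 of at least 100 was added after seeing the data.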

Additional observations from a re-analysis of the deposited data

How the results depend on the processing

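The differences of Lyz2, Ctss and Lgals3 stayed lower and past the threshold under the 8 alternatives run for each and without each of the 16 libraries in turn. Their ranges without one library were -1.04 to -0.82 for Lyz2, -0.87 to -0.69 for Ctss and -0.94 to -0.73 for Lgals3. Il1b did so too (-0.73 to -0.60 without one library), except without the 4 libraries with Orm2 of at least 100, where it was -0.54 (limma adjusted p = 0.0508). Cd14 was -0.15 without vehicle libraries 33, 34 and 35 and -0.16 without the 4 libraries, and it lost its call in 9 of 16 single omissions (-0.61 to -0.42 over the 16). The single omissions gave -0.54 to -0.34 for Trem2, -0.77 to -0.47 for Ccl6, -0.75 to -0.33 for S100a9, -0.20 to -0.10 for Gpnmb and -0.22 to -0.11 for Ngp. Without libraries 33, 34 and 35 and without the 4 libraries, Gpnmb (0.020 and 0.0041), S100a9 (0.25 and 0.14) and Ngp (0.0041 and 6.56e-05) turned to higher with SXB and did not pass; fewer libraries remained, and the 3 vehicle libraries were their highest. Members passing numbered 5, 4 without the 3 libraries, 3 without the 4 libraries, and 4 to 6 without one library. Pseudocounts of 0.1 and 0.01 kept the direction and the call of all 10 members but enlarged the differences, to -0.63 and -1.03 for Gpnmb, -0.74 and -1.16 for Ngp, -0.84 and -0.93 for Trem2 and -0.84 and -0.90 for Cd14; for the other 6 the change was under 1.5 times. Listed genes passing numbered 94, and 110 and 130 with these pseudocounts, 117 by the robust fit with trend, 113 by permutation, 104 by rank-sum, 26 with a mean of at least 1 (fewer genes tested), 54 without the 3 libraries, 33 without the 4 libraries, 36 at a threshold of 0.01 and 68 to 101 without one library. Trem2, Gpnmb and Ngp have means below 1 and were not tested under the filter. No paired analysis was possible because the library numbers of the groups do not overlap. Depth is unknown, and values near 0.01, such as those of Gpnmb and Ngp, are limited by rounding.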
